A study of Homo sapiens with 8 samples.

Results

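The C/EBP factors are a family of basic leucine zipper transcription factors, and 5 of their genes (CEBPA, CEBPB, CEBPD, CEBPE and CEBPG) were followed in MEG-01 cells. They were picked by gene symbol from 60754 genes in the deposited tables, with earlier results of these data in view, among them a higher CEBPA level after Ceefourin 2 in PMA-treated cells. All 5 were found and all 5 passed the filter on low counts. Fold changes and p-values therefore describe these genes and are no independent evidence for having picked them. MEG-01 is an established human megakaryoblast line, derived from a chronic myeloid leukaemia in blast crisis. RNA was sequenced from 4 groups of 2 libraries each. The groups were cells given PMA at 100 nM together with Ceefourin 2 at 20 µM, cells given PMA at 100 nM, cells given Ceefourin 2 without PMA, and untreated cells. PMA, a phorbol ester, switches on protein kinase C, and Ceefourin 2 inhibits the exporter ABCC4. Treatment lasted 48 h, and the sources used here do not give the dose of Ceefourin 2 without PMA. All groups come from the same line, and the labels do not say that the libraries of a group came from separate cultures. The p-values then measure only the spread between these libraries, which may be technical.

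C/EBP proteins bind DNA as dimers, with themselves, with each other and with related leucine zipper proteins. C/EBPα drives the commitment of myeloid progenitors to granulocytes, slows the cell cycle and is recurrently mutated in acute myeloid leukaemia. C/EBPβ acts in macrophages and in emergency granulopoiesis, C/EBPδ in the acute phase response, and C/EBPε in the last steps of granulocyte maturation. C/EBPγ is a short member without the usual activation domain. It pairs with the other members and with ATF4, the main factor of the amino acid response.

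In GENCODE coordinates on GRCh38, CEBPA and CEBPG are neighbours. CEBPA (ENSG00000245848.3) lies at chr19:33299934-33302564 on the minus strand in a single exon. CEBPG (ENSG00000153879.9) lies at chr19:33373330-33382686 on the plus strand with 2 exons per transcript, and 70766 bases separate it from CEBPA. CEBPB (ENSG00000172216.5) is a 1-exon gene at chr20:50190734-50192689 on the plus strand. CEBPE (ENSG00000092067.5) has 2 exons at chr14:23117304-23119616 on the minus strand. An antisense gene, CEBPA-DT, starts upstream of CEBPA and runs the other way, with the 2 starts 287 bases apart in RefSeq. RefSeq puts the CEBPA start at 33302534 and GENCODE at 33302564, so the last 30 bases of a window upstream of the RefSeq start lie inside the GENCODE gene, the TATAAA match among them. The 250 bases upstream of the RefSeq start of CEBPA are shown because they lie between the RefSeq starts of these 2 divergent genes, both of which are described with their counts below. They are taken from RefSeq on GRCh38.p14, chr19:33302535-33302784, minus strand, with the match to TATAAA in capitals.
CEBPA promoter: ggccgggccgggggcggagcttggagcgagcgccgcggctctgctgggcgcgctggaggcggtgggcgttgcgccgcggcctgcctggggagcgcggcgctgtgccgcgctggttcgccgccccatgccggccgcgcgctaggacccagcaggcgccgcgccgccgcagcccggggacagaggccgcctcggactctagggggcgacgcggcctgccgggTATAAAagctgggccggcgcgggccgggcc
The window has a GC content of 81.2%. TATAAA was searched on both strands and occurs in 10.7% of 35116 promoter windows of 250 bases. The CEBPA window holds no match to CCAAT on either strand, which 32% of windows have, whereas a window upstream of 1 of the CEBPG starts holds 2 matches to CCAAT. These matches are descriptions of letters and not sites of binding. Of the 5 genes, 4 have an entry in the promoter table.

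Expected counts summed to between 44430292 and 89950886 per library. Of 18 megakaryocyte markers, 16 reached 1 TPM in at least 1 library. TPM is a level corrected for gene length and scaled to the same total in every library. The megakaryocyte list summed to 1552 to 1600 TPM with PMA plus Ceefourin 2 and 1581 to 1800 TPM with PMA. It summed to 548 to 618 TPM with Ceefourin 2 and 473 to 476 TPM in untreated cells. In untreated cells CD9, GP1BB, SELP and THBS1 of this list were below 1 TPM. Of 12 granulocyte markers, 1 reached 1 TPM and 9 stayed below 0.1 TPM in all 8 libraries, and the summed level of the list was between 0.340 and 1.35 TPM. Summed monocyte and macrophage markers were at 384 to 422 TPM with PMA plus Ceefourin 2, 422 to 471 TPM with PMA, 179 to 195 TPM with Ceefourin 2 and 220 to 221 TPM in untreated cells, carried by 4 of 12 genes. The share of counts from mitochondrial genes also moved with PMA, at 4.94% to 8.32% with PMA plus Ceefourin 2, 4.53% to 9.61% with PMA, 2.77% to 3.11% with Ceefourin 2 and 2.55% to 3.94% in untreated cells. Of 12 erythroid markers, 11 reached 1 TPM in at least 1 library. Summed erythroid markers were at 26184 to 33242 TPM with PMA plus Ceefourin 2 and 31750 to 38237 TPM with PMA. They were at 4723 to 5085 TPM with Ceefourin 2 and 9784 to 10711 TPM in untreated cells. The part of these shifts in the results was not tested. In bulk RNA, fewer cells of a type and less RNA per cell cannot be told apart. Libraries of a group differed by more than sampling noise, with a chi-square of 45.1 to 94.8 per gene.

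CEBPA was the member that moved with both agents. Differences were tested with edgeR's quasi-likelihood test and Benjamini-Hochberg adjustment over all tested genes, and a gene was called, or said to rise or fall, at an adjusted p below 0.05. CEBPA had 5.05 and 3.77 TPM with PMA plus Ceefourin 2, 1.72 and 1.47 TPM with PMA, 33.3 and 18.3 TPM with Ceefourin 2, and 8.56 and 5.97 TPM in untreated cells. The 4 groups did not overlap, with Ceefourin 2 highest, untreated next, PMA plus Ceefourin 2 below that and PMA lowest. The expected counts behind these levels were 548 and 714 with PMA plus Ceefourin 2, 224 and 150 with PMA, 3801 and 2129 with Ceefourin 2, and 732 and 707 in untreated cells. On a linear scale the largest spread was in Ceefourin 2 cells, at 25.8 ± 10.7 TPM, against 7.27 ± 1.83 TPM in untreated cells (SD, n = 2 each). With PMA, CEBPA fell 3.79-fold against untreated cells (log2 fold change -1.92, SE 0.29, edgeR adjusted p = 0.00081). In the presence of Ceefourin 2, CEBPA fell 4.75-fold with PMA plus Ceefourin 2 against Ceefourin 2 (log2 fold change -2.25, SE 0.27, edgeR adjusted p = 0.00029). With Ceefourin 2, CEBPA rose 3.50-fold against untreated cells (log2 fold change 1.81, SE 0.27, edgeR adjusted p = 0.022). It was 2.79-fold higher with PMA plus Ceefourin 2 than with PMA (log2 fold change 1.48, SE 0.28, edgeR adjusted p = 0.048), a value known when the gene was picked and given as a description. These comparisons share libraries, for example the untreated ones in both comparisons against untreated cells.

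How far the Ceefourin 2 calls of CEBPA lay from the threshold depended on the tool. DESeq2 gave adjusted p = 1.1e-05 with PMA plus Ceefourin 2 against PMA and 3e-09 with Ceefourin 2 against untreated. DESeq2 also called more genes over all. It called 450 higher and 349 lower with PMA plus Ceefourin 2 against PMA, where edgeR called 159 and 158. With Ceefourin 2 against untreated it called 507 and 330, where edgeR called 166 and 125. In edgeR the call with PMA plus Ceefourin 2 against PMA was lost without any 1 of 6 libraries, namely either replicate of PMA plus Ceefourin 2 (edgeR adjusted p = 0.24 without replicate 1 and 0.12 without replicate 2), either of PMA (0.17 and 0.28) and either untreated one (0.069 each). With Ceefourin 2 against untreated it was lost without Ceefourin 2 replicate 1 (edgeR adjusted p = 0.053) and without untreated replicate 1 or 2 (0.088 and 0.15). Of 18 alternatives, the call held in 7 for PMA plus Ceefourin 2 against PMA and in 12 for Ceefourin 2 against untreated. The log2 fold change itself stayed above 0 in all 18. It lay between 1.05 and 1.66 for PMA plus Ceefourin 2 against PMA and between 1.37 and 2.15 for Ceefourin 2 against untreated.

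**Figure D1:**
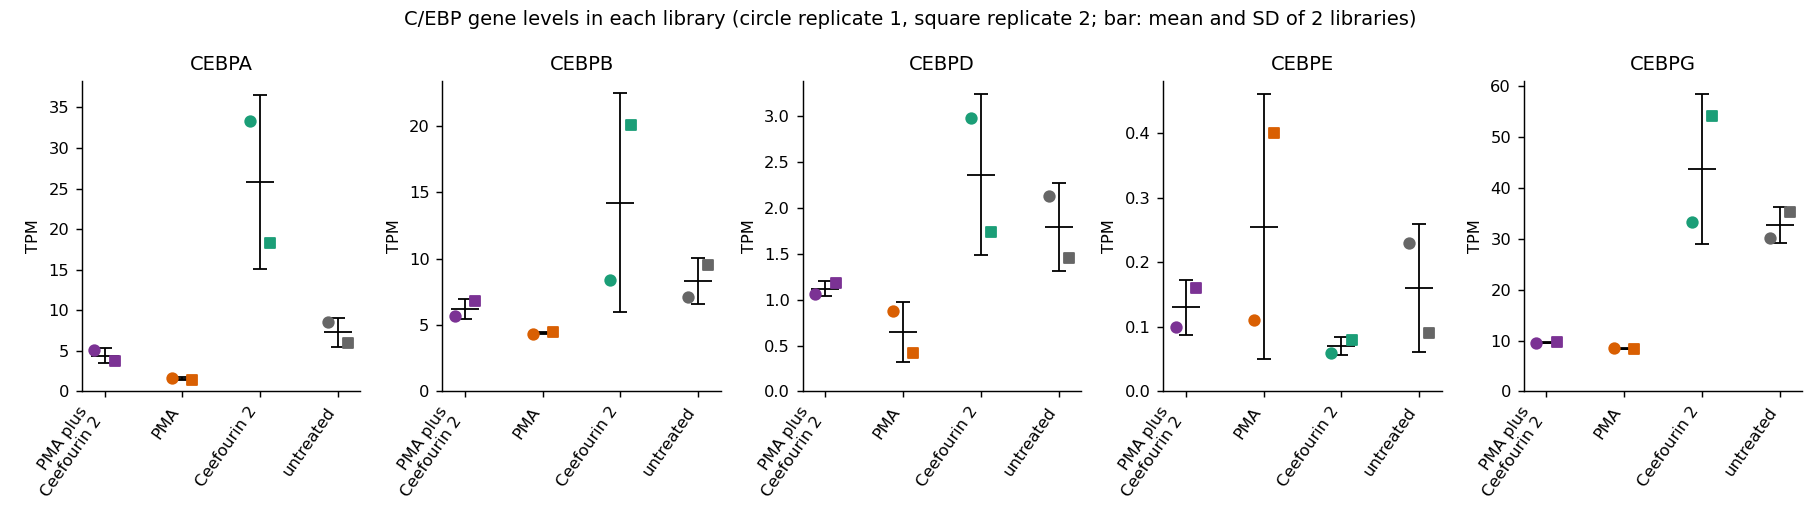
Level of each C/EBP gene in TPM (vertical axis, a linear scale from 0 that differs between panels) in each of 8 libraries, by group, with the mean and SD of 2 libraries. CEBPA in Ceefourin 2 cells stands at 33.3 and 18.3 TPM, above the untreated libraries, and CEBPA and CEBPG are low in both PMA groups.

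CEBPG was the most abundant member by mean TPM in all 4 groups. It had 9.53 and 9.67 TPM with PMA plus Ceefourin 2, 8.54 and 8.30 TPM with PMA, 33.3 and 54.2 TPM with Ceefourin 2, and 30.2 and 35.2 TPM in untreated cells. All 4 libraries with PMA were below all 4 without it, and the Ceefourin 2 libraries overlapped the untreated ones. CEBPG fell 3.39-fold with PMA against untreated cells (log2 fold change -1.76, SE 0.23, edgeR adjusted p = 0.00045). The fall was 3.81-fold with PMA plus Ceefourin 2 against Ceefourin 2 (-1.93, SE 0.23, edgeR adjusted p = 0.00028). Both calls held in 18 of 18 alternatives. Neither Ceefourin 2 comparison was called, at 0.21 (SE 0.23, edgeR adjusted p = 0.79) for PMA plus Ceefourin 2 against PMA and 0.38 (SE 0.22, edgeR adjusted p = 0.54) for Ceefourin 2 against untreated on the log2 scale.

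CEBPD (ENSG00000221869.4) is a gene of 1 exon at chr8:47736909-47739086 on the minus strand. It was a low member, at 1.06 and 1.18 TPM with PMA plus Ceefourin 2, 0.88 and 0.42 TPM with PMA, 2.98 and 1.74 TPM with Ceefourin 2, and 2.13 and 1.45 TPM in untreated cells. The PMA libraries lay below the untreated ones, and the Ceefourin 2 libraries overlapped them. CEBPD fell 2.26-fold with PMA against untreated cells (log2 fold change -1.18, SE 0.38, edgeR adjusted p = 0.031). PMA replicate 2 was the lowest library, with 35 counts, and without it the log2 fold change was -0.75 (edgeR adjusted p = 0.14). Without untreated replicate 1 it was -0.94 (edgeR adjusted p = 0.14). The other comparisons of CEBPD were not called, at -0.76 (SE 0.36, edgeR adjusted p = 0.11) for PMA plus Ceefourin 2 against Ceefourin 2, 0.80 (SE 0.38, edgeR adjusted p = 0.42) for PMA plus Ceefourin 2 against PMA, and 0.38 (SE 0.36, edgeR adjusted p = 0.75) for Ceefourin 2 against untreated.

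CEBPB had 5.70 and 6.77 TPM with PMA plus Ceefourin 2, 4.31 and 4.44 TPM with PMA, 8.37 and 20.0 TPM with Ceefourin 2, and 7.09 and 9.53 TPM in untreated cells. The PMA libraries were below the untreated ones, and Ceefourin 2 replicate 2 stood above all other libraries. No comparison of CEBPB was called by edgeR. Its log2 fold change was -0.69 (SE 0.39, edgeR adjusted p = 0.17) for PMA against untreated, -0.90 (SE 0.38, edgeR adjusted p = 0.08) for PMA plus Ceefourin 2 against Ceefourin 2, 0.54 (SE 0.39, edgeR adjusted p = 0.64) for PMA plus Ceefourin 2 against PMA, and 0.76 (SE 0.38, edgeR adjusted p = 0.46) for Ceefourin 2 against untreated. Whether CEBPB was called depended on the tool, the filter and the libraries. It was called lower with PMA against untreated in a fit of only the groups compared. With PMA plus Ceefourin 2 against Ceefourin 2, limma on log2(TPM + 0.1) called it lower. With all 8 libraries, it was called lower with PMA plus Ceefourin 2 against Ceefourin 2 by DESeq2 (-0.91, DESeq2 adjusted p = 0.023) and by limma on log2(TPM + 1) (-0.96, limma adjusted p = 0.039, and 0.12 with no filter). With no filter on low counts edgeR called it in that comparison (edgeR adjusted p = 7.8e-07), with PMA against untreated (0.00046) and with Ceefourin 2 against untreated (0.00053). Without replicate 1 or replicate 2 of Ceefourin 2 in the fit, CEBPB was called lower with PMA against untreated (edgeR adjusted p = 0.024 and 0.023), and without replicate 1 also with PMA plus Ceefourin 2 against Ceefourin 2 (-1.43, edgeR adjusted p = 0.0022). CEBPE was near the detection limit, at 6 and 17 counts with PMA plus Ceefourin 2, 8 and 23 with PMA, 4 and 5 with Ceefourin 2, and 11 and 6 in untreated cells. These counts correspond to between 0.06 and 0.40 TPM, and no difference was detectable at this depth (edgeR adjusted p between 0.24 and 0.68 in the 4 comparisons).

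Of the 5 genes, 3 were called lower and 0 higher with PMA against untreated, where 25.7% of 17314 tested genes were called lower and 27.9% higher. With PMA plus Ceefourin 2 against Ceefourin 2, 2 were called lower and 0 higher, where 25.6% of all tested genes were lower and 28.0% higher. With PMA plus Ceefourin 2 against PMA, 1 was called higher and 0 lower, where 0.918% of genes were higher and 0.913% lower. With Ceefourin 2 against untreated, 1 was called higher and 0 lower, where 0.959% of genes were higher and 0.722% lower. The median log2 fold change of the 5 genes in these comparisons was -1.18, -0.90, 0.54 and 0.38, beside medians over all tested genes of 0, 0.02, 0 and 0. In mean TPM, CEBPA, CEBPB, CEBPD and CEBPG shared the same order of groups, with Ceefourin 2 highest, then untreated, then PMA plus Ceefourin 2, then PMA. For CEBPB, CEBPD and CEBPG the Ceefourin 2 and untreated libraries overlapped, and neither Ceefourin 2 comparison was called. How many of all tested genes share this order was not counted. CEBPE did not follow this order, with means of 0.130 TPM with PMA plus Ceefourin 2, 0.255 TPM with PMA, 0.0700 TPM with Ceefourin 2 and 0.160 TPM in untreated cells.

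Whether the Ceefourin 2 effect differed with and without PMA was tested as an interaction. Since the dose of Ceefourin 2 without PMA is not given, the 2 effects may belong to unlike doses. For CEBPA the difference of log2 fold changes was -0.33 (SE 0.39, edgeR adjusted p = 1). For the other members it was -0.21 (SE 0.55) for CEBPB, 0.42 (SE 0.52) for CEBPD, 0.28 (SE 1.04) for CEBPE and -0.17 (SE 0.32) for CEBPG. None of the 5 was called by edgeR, 0 had an unadjusted p under 0.05, and DESeq2 called 0. Over all tested genes 0.0116% were called higher and 0% lower.

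**Figure D2:**
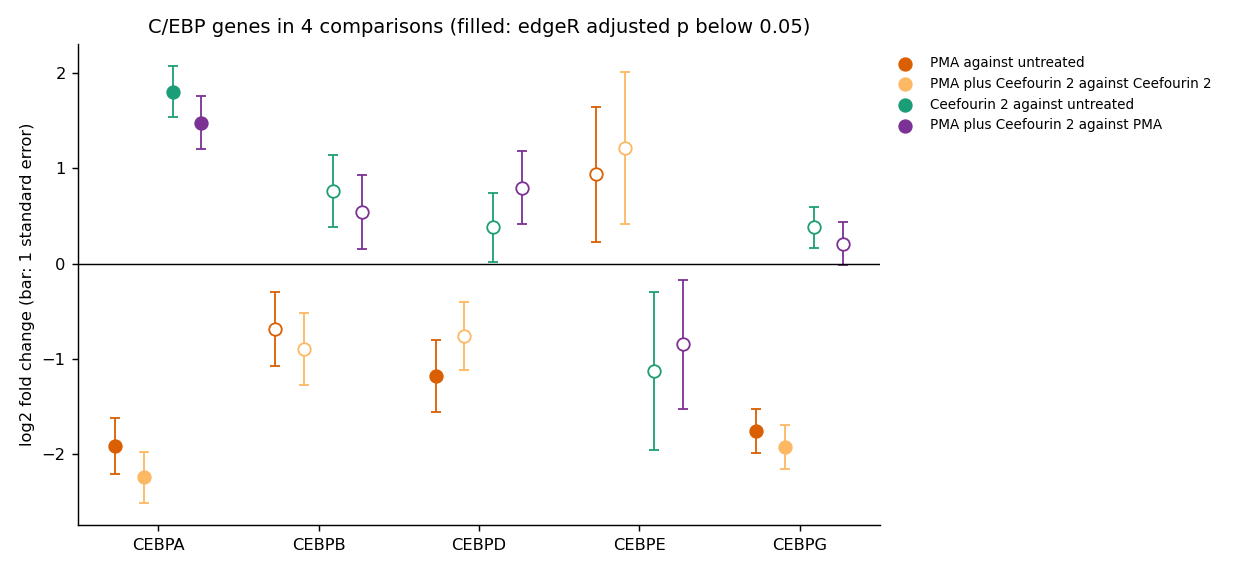
Log2 fold change (vertical axis, bars of 1 standard error) of each C/EBP gene in 4 comparisons, filled where the edgeR adjusted p was below 0.05. CEBPA is filled in all 4 comparisons, at -1.92, -2.25, 1.81 and 1.48, and CEBPG in both PMA comparisons.

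Levels of the members can be compared with each other on the TPM scale. The summed level of the 5 genes was 21.4 and 21.5 TPM with PMA plus Ceefourin 2, 15.6 and 15.0 TPM with PMA, 78.0 and 94.3 TPM with Ceefourin 2, and 48.2 and 52.3 TPM in untreated cells. These sums did not overlap between any of the groups, which is a description of 2 libraries each. How often this occurs over all genes was not counted. On the log2(TPM + 1) scale the median of all genes itself shifted by -0.23 with PMA against untreated. With Ceefourin 2 against untreated, CEBPA alone of the 5 was called. CEBPG held 44.7% ± 0.299 of the sum with PMA plus Ceefourin 2, 55.1% ± 0.239 with PMA, 50.1% ± 10.5 with Ceefourin 2 and 65.0% ± 3.40 in untreated cells (SD, n = 2 each). CEBPA held 20.5% ± 4.28 with PMA plus Ceefourin 2, 10.4% ± 0.901 with PMA, 31.0% ± 16.5 with Ceefourin 2 and 14.6% ± 4.50 in untreated cells (SD, n = 2 each). The CEBPA share was therefore higher in both libraries with PMA plus Ceefourin 2 (23.6% and 17.5%) than in both with PMA (11.1% and 9.78%). With Ceefourin 2 it was 42.7% and 19.4%, against 17.8% and 11.4% in untreated cells, again without overlap. CEBPB, by contrast, held a larger share in the PMA groups, at 29% with PMA plus Ceefourin 2 and 28.6% with PMA, against 16% with Ceefourin 2 and 16.5% in untreated cells. In untreated cells CEBPB (8.31 ± 1.73 TPM) and CEBPA (7.27 ± 1.83 TPM) did not differ beyond their spread, and their order differed between the 2 libraries. In Ceefourin 2 replicate 1, CEBPA and CEBPG were level, with a ratio of 1.00, while in replicate 2 the ratio was 0.337.

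**Figure D3:**
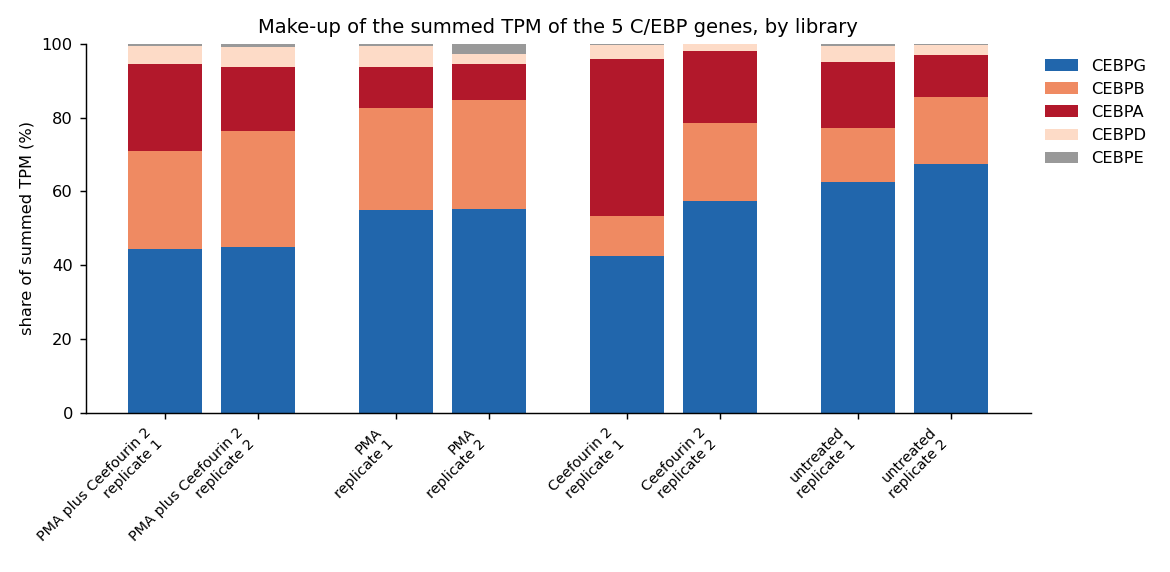
Share of each gene in the summed TPM of the 5 C/EBP genes (vertical axis, percent) in each of 8 libraries. CEBPG has the largest share in 7 libraries, while in Ceefourin 2 replicate 1 CEBPA holds 42.7% and CEBPG 42.6%.

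The 2 libraries treated with Ceefourin 2 alone differed from each other in CEBPA, CEBPB, CEBPD and CEBPG, and the untreated pair differed with the same signs. Relative to replicate 1, replicate 2 had more CEBPB and CEBPG and less CEBPA and CEBPD, with log2 differences of 1.34 for CEBPB, 0.78 for CEBPG, -0.79 for CEBPA and -0.70 for CEBPD. In the same pair, ATF4 differed by 1.04, DDIT3 by 2.38 and ATF3 by 2.18 on the log2 scale, beside a median of 0.02 over all tested genes. DDIT3 (CHOP) is a dimer partner of the C/EBP proteins, and ATF3 and DDIT3 are both induced through ATF4. Of 24 tested genes of the amino acid response list, all 24 were higher in replicate 2, with a median of 1.45. Between the untreated libraries the same list differed by a median of 0.54, with 24 of 24 higher in replicate 2. CEBPB differed there by 0.55, CEBPG by 0.33, CEBPA by -0.40 and CEBPD by -0.43, with ATF4 at 0.70, DDIT3 at 1.23 and ATF3 at 1.53. CEBPE, with few counts, differed by 0.37 between the Ceefourin 2 libraries and by -1.22 between the untreated ones. CEBPA was lower in replicate 2 in all 4 groups, by -0.37 with PMA plus Ceefourin 2 and -0.23 with PMA. The list differed less between the libraries with PMA plus Ceefourin 2 (median 0.20, 19 of 24 higher) and with PMA (median -0.01, 12 of 24 higher). Without Ceefourin 2 replicate 2, the log2 fold change for Ceefourin 2 against untreated was -0.06 for CEBPB (edgeR adjusted p = 0.95) and -0.07 for CEBPG (edgeR adjusted p = 0.89). Without Ceefourin 2 replicate 1 it was 1.29 for CEBPB (edgeR adjusted p = 0.068) and 0.73 for CEBPG (edgeR adjusted p = 0.084). For CEBPA it was 2.15 without replicate 2 and 1.37 without replicate 1.

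**Figure D4:**
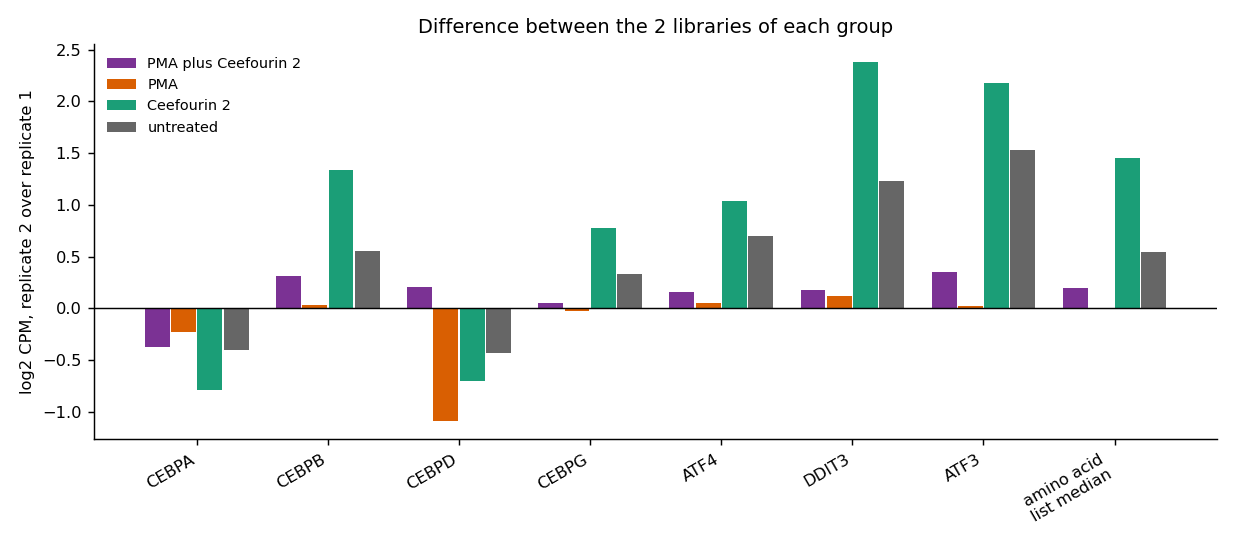
Log2 difference in CPM (counts scaled to library size), replicate 2 over replicate 1 (vertical axis), for 4 C/EBP genes, 3 stress response factors and the median of the amino acid response list, by group. In the Ceefourin 2 and untreated pairs CEBPB, CEBPG, ATF4, DDIT3 and ATF3 are above 0 while CEBPA and CEBPD are below 0.

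Among relatives and dimer partners of the family, 6 of 17 tested genes rose and 5 fell with PMA against untreated, near the shares over all tested genes (27.9% higher and 25.7% lower). JUN, a subunit of AP-1, had 33.8 and 38.5 TPM with PMA, against 3.8 and 4.08 TPM in untreated cells (log2 fold change 3.44, SE 0.27, edgeR adjusted p = 3.1e-05). JUNB, another AP-1 subunit, rose by 2.58 on the log2 scale (SE 0.16, edgeR adjusted p = 1.2e-05), and NFIL3, a bZIP repressor, by 1.99 (SE 0.14, edgeR adjusted p = 2.1e-05). BATF3, a bZIP partner of JUN proteins, was called in the same direction as CEBPA in 3 of the 4 comparisons. It had 2.50 and 2.40 TPM with PMA plus Ceefourin 2, 2.32 and 1.94 TPM with PMA, 20.3 and 16.95 TPM with Ceefourin 2, and 9.46 and 7.99 TPM in untreated cells. It fell with PMA (-1.81, SE 0.17, edgeR adjusted p = 8.4e-05) and was the only gene of the list to rise with Ceefourin 2 against untreated (1.09, SE 0.16, edgeR adjusted p = 0.019). Over all tested genes 0.959% rose in that comparison. Of the 17, edgeR called 0 with PMA plus Ceefourin 2 against PMA, beside 0.918% higher and 0.913% lower over all tested genes. BATF3 was at 0.22 there (SE 0.18, edgeR adjusted p = 0.68). In the presence of Ceefourin 2, PMA raised 7 and lowered 5 of them, beside 28.0% higher and 25.6% lower over all tested genes.

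ATF4, a dimer partner of C/EBPγ, fell in the same PMA comparisons as CEBPG. It had 172 and 188 TPM with PMA plus Ceefourin 2, 158 and 166 TPM with PMA, 394 and 767 TPM with Ceefourin 2, and 341 and 511 TPM in untreated cells. ATF4 fell with PMA (-1.14, SE 0.33, edgeR adjusted p = 0.019), while DDIT3 was not called (0.54, SE 0.66, edgeR adjusted p = 0.52). Of 24 tested amino acid response genes, 12 fell and 1 rose with PMA against untreated, with a median log2 fold change of -1.03, beside 25.7% lower and 27.9% higher over all tested genes. PHGDH, the first enzyme of serine synthesis, had 7.45 and 8.0 TPM with PMA, against 130 and 167 TPM in untreated cells (log2 fold change -3.99, SE 0.47, edgeR adjusted p = 0.00026). PSAT1, the next enzyme of that route, fell by 3.62 (edgeR adjusted p = 0.00078) and CBS, of cysteine synthesis, by 1.51 (edgeR adjusted p = 0.00042). The gene that rose was PPP1R15A, which encodes a phosphatase subunit acting on eIF2α (2.33, SE 0.34, edgeR adjusted p = 0.00069). Of the same list, 15 fell and 1 rose with PMA plus Ceefourin 2 against Ceefourin 2, beside 25.6% and 28.0% over all tested genes. In the Ceefourin 2 comparisons 0 of 24 were called by edgeR. The median was 0.10 for PMA plus Ceefourin 2 against PMA, beside 0.918% higher and 0.913% lower over all tested genes. It was 0.47 for Ceefourin 2 against untreated, beside 0.959% higher and 0.722% lower.

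Of 30 tested regulators of the C/EBP genes and proteins, 12 rose and 8 fell with PMA against untreated, beside 27.9% higher and 25.7% lower over all tested genes, and their median log2 fold change was 0.01. With PMA plus Ceefourin 2 against Ceefourin 2, 11 rose and 8 fell, beside 28.0% and 25.6% over all tested genes. ID2, an inhibitor of helix-loop-helix factors, rose by 2.98 with PMA against untreated on the log2 scale (edgeR adjusted p = 7.8e-06), the shared cytokine receptor subunit IL6ST by 2.18 (edgeR adjusted p = 9e-06), OSMR, the oncostatin M receptor, by 2.92 (edgeR adjusted p = 2.3e-05) and STAT3 by 1.2 (edgeR adjusted p = 2.2e-05). TRIB1 encodes a pseudokinase that directs C/EBPα protein to degradation with COP1, and it was singled out after its values were seen. It had 49.3 and 74.2 TPM with PMA plus Ceefourin 2, 119 and 167 TPM with PMA, 10.2 and 4.59 TPM with Ceefourin 2, and 7.21 and 2.55 TPM in untreated cells. TRIB1 was thus high in both PMA groups, without overlap (5.15 for PMA against untreated, SE 0.56, edgeR adjusted p = 0.00017), and its lower level with PMA plus Ceefourin 2 than with PMA was not called (-1.17, SE 0.47, edgeR adjusted p = 0.33). TRIB2, of the same family and also singled out afterwards, fell with PMA against untreated (-0.78, SE 0.18, edgeR adjusted p = 0.0076).

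SPI1 (PU.1), a myeloid factor that acts with C/EBPα, was the only regulator called with PMA plus Ceefourin 2 against PMA. It had 18.8 and 23.5 TPM with PMA plus Ceefourin 2, 44.3 and 60.03 TPM with PMA, 36.3 and 39.3 TPM with Ceefourin 2, and 60.3 and 63.3 TPM in untreated cells. It fell with PMA plus Ceefourin 2 against PMA (-1.26, SE 0.18, edgeR adjusted p = 0.018), opposite in sign to CEBPA. Over all tested genes 0.913% fell in that comparison. SPI1 was at -0.72 (SE 0.18, edgeR adjusted p = 0.11) with Ceefourin 2 against untreated. With Ceefourin 2 against untreated, 2 regulators rose, OSMR (1.60, SE 0.21, edgeR adjusted p = 0.014) and CALR (0.54, SE 0.08, edgeR adjusted p = 0.024). Over all tested genes 0.959% rose in that comparison. CALR encodes calreticulin, which binds C/EBP mRNAs. The antisense gene CEBPA-DT had 7 and 2 counts with PMA plus Ceefourin 2, 0 and 2 with PMA, 41 and 25 with Ceefourin 2, and 11 and 6 in untreated cells. The Ceefourin 2 libraries had the most counts, and those with PMA plus Ceefourin 2 overlapped the untreated ones. CEBPA-DT fell with PMA plus Ceefourin 2 against Ceefourin 2 (-2.81, SE 0.81, edgeR adjusted p = 0.019), and its Ceefourin 2 against untreated difference was not called (1.70, SE 0.74, edgeR adjusted p = 0.37).

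CEBPA and CEBPG share a stretch of chromosome 19 with other genes, looked at where they overlap a window of 500000 bases on each side of CEBPA, set after the values were seen. Of 10 tested protein-coding neighbours other than CEBPA, CEBPG included, 6 fell and 1 rose with PMA against untreated, with a median of -0.66, beside 25.7% lower and 27.9% higher over all tested genes. LRP3, of the LDL receptor family, had 0.88 and 0.65 TPM with PMA, against 6.58 and 4.87 TPM in untreated cells. It fell by 2.44 on the log2 scale, and RHPN2 by 1.46. CEP89 was the gene that rose (0.35). There, too, 6 fell and 0 rose with PMA plus Ceefourin 2 against Ceefourin 2, beside 25.6% and 28.0% over all tested genes. With Ceefourin 2 against untreated, edgeR called 0 of the 10, beside 0.959% higher and 0.722% lower over all tested genes. The median of the 10 was 0.22. LRP3 was at 0.66 (edgeR adjusted p = 0.094). Likewise, edgeR called 0 of the 10 with PMA plus Ceefourin 2 against PMA, beside 0.918% higher and 0.913% lower over all tested genes. LRP3 was at 0.54 there (edgeR adjusted p = 0.21). At such shares, 0 calls among 10 genes cannot show that the Ceefourin 2 difference is confined to CEBPA.

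**Figure D5:**
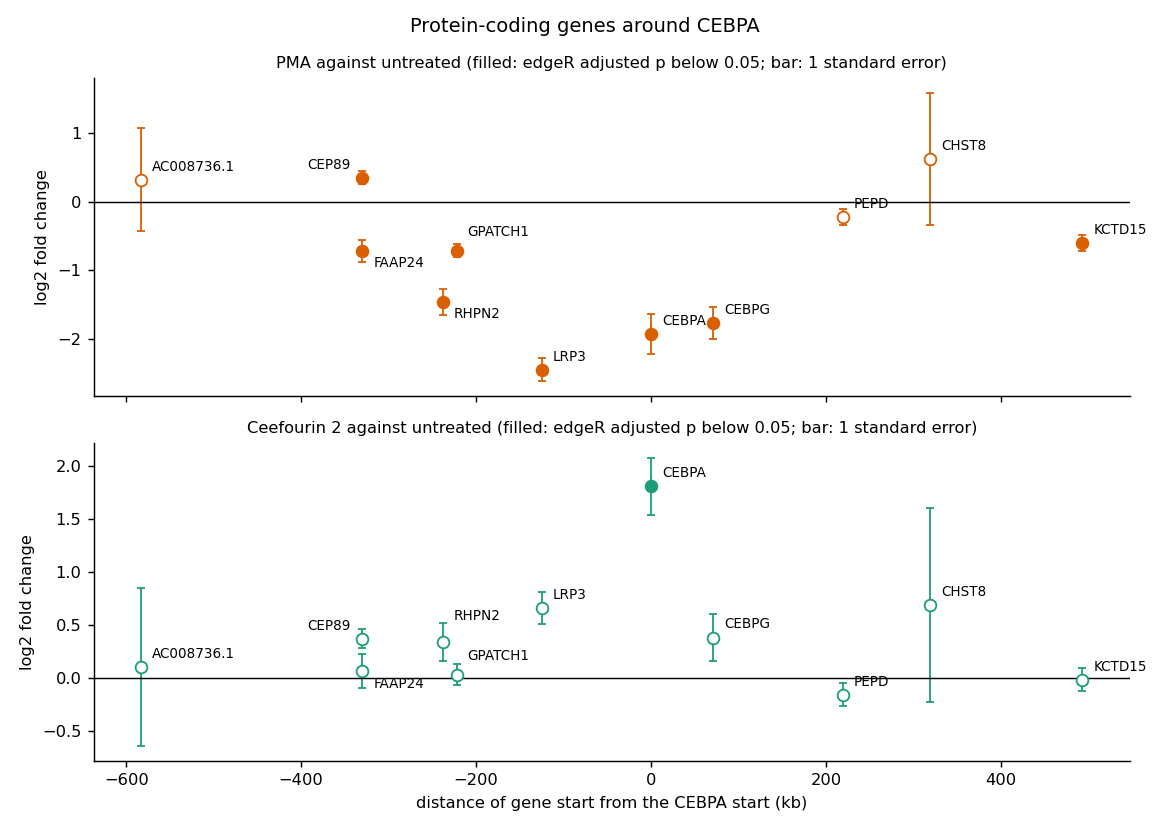
Log2 fold change (vertical axis, bars of 1 standard error) of tested protein-coding genes around CEBPA by distance of their start from the CEBPA start (horizontal axis, kb), for PMA against untreated (top) and Ceefourin 2 against untreated (bottom). LRP3, CEBPA and CEBPG are the lowest with PMA, at -2.44, -1.92 and -1.76, whereas with Ceefourin 2 CEBPA alone is filled, at 1.81. Over all tested genes 0.959% rose and 0.722% fell with Ceefourin 2 against untreated.

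Granulocyte and monocyte genes with known C/EBP dependence were often near 0, with 15 of 33 below 0.1 TPM in all 8 libraries, and 15 passed the filter. MPO and CSF3R, textbook C/EBPα targets of granulocyte precursors, had at most 3 and 4 counts in any library, and ELANE had 0 counts in all 8. They stayed there in the Ceefourin 2 libraries, where CEBPA RNA was highest. These data hold no C/EBP protein level or activity, and a link between CEBPA and these genes was not tested. With PMA against untreated, 7 of the 15 rose and 3 fell, beside 27.9% higher and 25.7% lower over all tested genes. FCGR1A, the high affinity IgG receptor, had 6.61 and 6.26 TPM with PMA, against 0.71 and 0.77 TPM in untreated cells (log2 fold change 3.03, SE 0.21, edgeR adjusted p = 1.7e-05). IL1RN, the interleukin 1 receptor antagonist, rose by 3.33 (edgeR adjusted p = 4.6e-05), and CD33, a myeloid surface lectin, fell by 0.94 (edgeR adjusted p = 3.1e-05). The median of the list was 1.23 in edgeR but -0.19 on the log2(TPM + 1) scale over the 9 genes kept there. ITGAM (CD11b) had 2.21 and 1.41 TPM with PMA plus Ceefourin 2, 1.07 and 0.83 TPM with PMA, 5.65 and 6.76 TPM with Ceefourin 2, and 23.2 and 17.5 TPM in untreated cells. It fell with PMA (-3.90, SE 0.18, edgeR adjusted p = 3.2e-06) and was the gene of this list called with Ceefourin 2 against untreated, where it fell (-1.59, SE 0.16, edgeR adjusted p = 0.006). Over all tested genes 0.722% fell in that comparison. None of the 15 was called with PMA plus Ceefourin 2 against PMA, beside 0.918% higher and 0.913% lower over all tested genes. With PMA plus Ceefourin 2 against Ceefourin 2, 8 rose and 3 fell, beside 28.0% and 25.6% over all tested genes.

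Of 30 inflammatory and acute phase genes with C/EBP sites, 16 passed the filter on low counts. With PMA against untreated, 14 of the 16 rose and 0 fell, with a median of 3.79, beside 27.9% higher over all tested genes. Some passed only through the PMA groups where they are high, such as TNF, with 0 counts in every library without PMA. Counts and medians of the 16 are therefore partly set by the filter. CCL2, a monocyte chemokine, had 272 and 243 TPM with PMA, against 3.96 and 4.24 TPM in untreated cells (log2 fold change 6.22, SE 0.16, edgeR adjusted p = 8.5e-07). IL6, an acute phase cytokine whose promoter gave C/EBPβ its older name NF-IL6, rose by 5.95 (SE 0.39, edgeR adjusted p = 1.3e-05). SOCS3, a feedback inhibitor of cytokine receptors, rose in every comparison made with either agent. It had 16.6 and 15.1 TPM with PMA plus Ceefourin 2, 8.30 and 8.64 TPM with PMA, 7.89 and 5.74 TPM with Ceefourin 2, and 3.73 and 3.13 TPM in untreated cells. It rose by 0.93 with PMA plus Ceefourin 2 against PMA (SE 0.14, edgeR adjusted p = 0.02) and by 0.97 with Ceefourin 2 against untreated (SE 0.14, edgeR adjusted p = 0.021). Beside it, IL1A (1.60, SE 0.24, edgeR adjusted p = 0.022) and TNF (1.83, SE 0.29, edgeR adjusted p = 0.048) also rose with PMA plus Ceefourin 2 against PMA, and CCL4 fell (-1.77, SE 0.29, edgeR adjusted p = 0.027). Over all tested genes 0.918% rose and 0.913% fell in that comparison. In the presence of Ceefourin 2, PMA raised 14 and lowered 0 of the 16, beside 28.0% higher and 25.6% lower over all tested genes.

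C/EBP targets of fat and liver cells were sparse, with 8 of 19 tested. With PMA against untreated, 2 rose and 4 fell, beside 27.9% higher and 25.7% lower over all tested genes. CD36, a fatty acid transporter, rose (2.76, SE 0.20, edgeR adjusted p = 2.4e-05) and LPL, lipoprotein lipase, fell (-1.80, SE 0.14, edgeR adjusted p = 3.5e-05). With Ceefourin 2 against untreated only CD36 was called in this list, and it fell (-1.66, SE 0.20, edgeR adjusted p = 0.012), beside 0.722% lower over all tested genes. Of 11 tested mast cell, basophil and eosinophil genes, 4 rose and 3 fell with PMA against untreated, near the 27.9% higher and 25.7% lower over all tested genes. With Ceefourin 2 against untreated, KIT, the stem cell factor receptor, rose (2.33, SE 0.10, edgeR adjusted p = 0.00015). FCER1A (-1.53, edgeR adjusted p = 0.014) and TPSB2 (-2.48, edgeR adjusted p = 0.045) fell there. TPSB2 had few counts, 4 and 6 with Ceefourin 2 and 18 and 32 in untreated cells. Over all tested genes 0.959% rose and 0.722% fell in that comparison. With PMA plus Ceefourin 2 against PMA, KIT rose (2.52, SE 0.10, edgeR adjusted p = 0.00017). FCER1A (-2.86, edgeR adjusted p = 0.002) and HDC (-0.91, edgeR adjusted p = 0.01) fell there, beside 0.918% higher and 0.913% lower over all tested genes. The medians of that list were -0.34 and -0.91 in these comparisons. Of 18 megakaryocyte and platelet markers 16 were tested, and all 16 rose with PMA against untreated. Their median was 4.25, beside 27.9% higher over all tested genes. CD9, with 5 and 3 counts in untreated cells, passed the filter through the PMA groups where it is high. The count and the median are therefore partly set by the filter. With Ceefourin 2 against untreated 3 rose, among them ITGB3 (1.31, SE 0.09, edgeR adjusted p = 0.0015), and 0 fell. Over all tested genes 0.959% rose and 0.722% fell in that comparison. With PMA plus Ceefourin 2 against PMA 1 rose and 2 fell, beside 0.918% and 0.913% over all tested genes. With PMA plus Ceefourin 2 against Ceefourin 2 all 16 rose, beside 28.0% over all tested genes.

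The genes most like each member over the 8 libraries were sought among 13558 protein-coding genes by Pearson's r of log2 CPM. These libraries form 4 groups, so r mainly reflects the group levels and is given as a description. CEBPA was closest to EPAS1 (0.987), TWSG1 (0.986) and MMP16 (0.985). CEBPB was closest to TATDN1 (0.978), ZNF581 (0.975) and ZNF821 (0.972), and CEBPD to ASPH (0.983), MAN1C1 (0.975) and MARK1 (0.966). CEBPG was closest to TSEN15 (0.996), AP1AR (0.993) and WNT3 (0.992), and CEBPE, with few counts, to TSTD2 (0.906), MRPS11 (0.895) and BTK (0.890). Between members, r was highest for CEBPA with CEBPD (0.88), then 0.79 for CEBPG with both CEBPA and CEBPB. EPAS1, which encodes a hypoxia-inducible factor, shows the likeness to CEBPA, with 37.1 and 35.9 TPM with PMA plus Ceefourin 2, 33.4 and 28.6 TPM with PMA, 79.4 and 66.5 TPM with Ceefourin 2, and 59.6 and 52.8 TPM in untreated cells. The order of groups is that of CEBPA, over a narrower range.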

How the data were processed

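Stranded mRNA libraries of MEG-01 cells were read in 4 groups of 2. Per the submitters' processing notes, the authors used STAR 2.7, RSEM 1.3.1 and hg38. No annotation release was found in these sources. The expected counts are RSEM estimates as deposited, not normalized, and were not whole in 7.05% to 7.83% of genes at a tolerance of 1e-06. TPM values, likewise deposited from RSEM, are corrected for length by the authors. Depth ran from 44430292 to 89950886 expected counts per library, so precision is limited by the 2 libraries a group. Exceptions are genes with few counts, such as CEBPE, CEBPA-DT and TPSB2.

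After rounding of the expected counts, edgeR 4.0.16 was run in R 4.3.3 (filterByExpr, 17314 genes, TMM factors 0.9197 to 1.083, quasi-likelihood test, 1 fit of 8 libraries with group means, 4 residual degrees of freedom). Adjusted p-values are Benjamini-Hochberg over all tested genes, called below 0.05. Rose and fell refer to called genes. The script was tested on simulated data. Alternatives used DESeq2 1.42.0, limma 3.58.1 on log2(TPM + 1) and log2(TPM + 0.1), other scaling, other filters, left-out libraries and the replicate number as a block. On the log2(TPM + 1) scale the median of all genes shifted by -0.23 with PMA against untreated and by -0.26 with PMA plus Ceefourin 2 against Ceefourin 2. CPM values are TMM-scaled. The 5 genes and 8 gene lists (186 different symbols, all matched) were chosen with earlier results of these data known. From each list at most 4 called genes with the smallest p were eligible for naming in each comparison, or, with none called, the gene of smallest p. ATF4, DDIT3, ATF3, CEBPA-DT, TRIB1, TRIB2, MPO, CSF3R, ELANE and the neighbours of CEBPA may fall outside this rule and were chosen with their values seen. Some genes stand on more than 1 list.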

Additional observations from a re-analysis of the deposited data

Results flagged for a closer look

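In 3 regulators or targets of the C/EBP family, both Ceefourin 2 libraries lay on one side of their controls in PMA-treated cells and on the other side without PMA, and in none was the difference called by edgeR as an interaction. Only the members, the list genes eligible for naming and the genes singled out were searched for this pattern. How often it occurs over all tested genes was not counted, so the 3 genes are given as a description. ID1 and MYC were called in neither Ceefourin 2 comparison. ITGAM was at 0.71 with PMA plus Ceefourin 2 against PMA (edgeR adjusted p = 0.1) and at -1.59 with Ceefourin 2 against untreated (edgeR adjusted p = 0.006), a difference of 2.30 on the log2 scale (edgeR adjusted p = 0.054). ID1 was at 0.50 with PMA plus Ceefourin 2 against PMA (edgeR adjusted p = 0.078) and -0.45 with Ceefourin 2 against untreated (edgeR adjusted p = 0.11), a difference of 0.95 (edgeR adjusted p = 0.14). MYC was at -0.15 with PMA plus Ceefourin 2 against PMA (edgeR adjusted p = 0.52) and 0.18 with Ceefourin 2 against untreated (edgeR adjusted p = 0.44), a difference of -0.33 (edgeR adjusted p = 0.62).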

How the results depend on the processing

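CEBPA and CEBPG were called lower with PMA against untreated and with PMA plus Ceefourin 2 against Ceefourin 2 in 18 of 18 alternatives. With PMA against untreated, 3 members were called lower in the report. That count was 4 with no filter, 4 in a fit of only the groups compared and 2 with limma on log2(TPM + 1) and no filter. It also moved with 1 library left out. The count of members called with PMA plus Ceefourin 2 against PMA, 1 in the report, was 0 with RLE scaling (CEBPA edgeR adjusted p = 0.051), 0 with replicate 1 of both PMA groups left out (0.62), and 0 with limma on log2(TPM + 1), on log2(TPM + 0.1) and on log2(TPM + 1) with no filter (limma adjusted p = 0.14, 0.092 and 0.32). It ranged from 0 to 1 when 1 library was left out. The count with Ceefourin 2 against untreated, 1 in the report, was 2 with no filter, 0 without replicate 1 of both PMA groups, 0 in a fit of only the groups compared and 0 with limma on log2(TPM + 1) and no filter, and ranged from 0 to 1 with 1 library left out. The count with PMA plus Ceefourin 2 against Ceefourin 2, 2 in the report, was 4 with no filter and 4 with limma on log2(TPM + 1). The cause was not tested. Signs turned with 1 library left out, where the range was -0.67 to 0.10 for the CEBPA interaction, -0.06 to 1.29 for CEBPB and -0.07 to 0.73 for CEBPG with Ceefourin 2 against untreated, -0.76 to 0.60 for the CEBPB, -0.01 to 1.08 for the CEBPD, -0.44 to 1.45 for the CEBPE and -0.53 to 0.27 for the CEBPG interaction, and for CEBPE -0.23 to 1.64 with PMA against untreated and -1.55 to 0.31 with PMA plus Ceefourin 2 against PMA. The CEBPE interaction also turned to -0.13 without replicate 1 of both PMA groups and to -0.03 with limma on log2(TPM + 1) and no filter. Of all calls over genes with PMA against untreated, 52.1% were higher in edgeR and 33.2% with limma on log2(TPM + 1), and with PMA plus Ceefourin 2 against Ceefourin 2 52.2% and 30.9%. The labels do not say that a replicate number marks a shared culture or day, and with 2 numbers a group the pairing was taken as not given by the design. Deviations of same-numbered libraries correlated at 0.14 to 0.36 over all 6 pairs of groups, a hint from the data that they vary together. With the replicate number as a block, the CEBPA log2 fold change was 1.49 with PMA plus Ceefourin 2 against PMA (edgeR adjusted p = 0.0015) and 1.77 with Ceefourin 2 against untreated (edgeR adjusted p = 0.00062). The block left 3 members called with PMA against untreated, 1 in each Ceefourin 2 comparison and 0 in the interaction. It gave 3 with PMA plus Ceefourin 2 against Ceefourin 2, CEBPB being added (-0.82, edgeR adjusted p = 0.025). Over all genes the block called 821 higher and 661 lower with PMA plus Ceefourin 2 against PMA, and 159 and 158 without it. Depth limits genes with few counts, such as CEBPE, CEBPA-DT and TPSB2.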
